A study of Mus musculus with 6 samples.

Results

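Sox5, Sox6 and Sox13 form the SoxD family and Sox8, Sox9 and Sox10 the SoxE family of transcription factors. They were followed here through every array probe set whose platform annotation gave exactly 1 gene symbol that was one of these 6 names. That rule found 19 probe sets of the 45101 on the array, for 6 of the 18194 genes with a named probe set. Sox5 had 7 of them, Sox6 had 4, Sox9 and Sox10 had 3 each, and Sox13 and Sox8 had 1 each.

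The embryos were mice at embryonic day 8.5, with a median of 6 somites, on a mixed 129S3;ICR background and of mixed sex. The litters were heterozygous for a GFP reporter at Noto, a homeobox gene of the node and of the cells that form the notochord. The GFP-positive group holds 3 arrays of cells sorted as positive, about 2600, 4300 and 6600 cells, and the GFP-negative group holds 3 arrays of the cells sorted as negative from the same dissociated posterior tissue. Pools 1, 2 and 3 combined tissue from 23, 39 and 52 embryos, and each pool gave 1 array of each group, so no array stands for a single embryo. The GFP-negative sort is a mixture of all remaining cell types of the dissected region, which lay behind the SI-SII somite boundary.

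Sox proteins bind DNA through an HMG box and bend it. SoxE proteins also carry domains that activate transcription, whereas SoxD proteins lack such a domain, pair through coiled coils and bind beside Sox9 at cartilage genes. In the mouse, Sox9 is needed for cartilage formation, Sox5 and Sox6 act with it there, and the notochord needs Sox5 and Sox6 for its extracellular sheath and Sox9 for its upkeep. Sox10, with Sox8 and Sox9, marks neural crest, the migratory population that leaves the dorsal neural tube.

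The 6 letters that the HMG box of these factors can bind were searched in the 250 bases before the transcript starts in RefSeq (GRCm38.p6). These windows are shown because Sox6 is the SoxD gene that moved, it has several alternative starts, and Sox5 is its closest relative. Either ACAAAG or ACAATG, on either strand, was in 25.2% of all 32851 windows. It was in 5 of the 6 windows of Sox6, in the 1 window of Sox5, and in 0 of the 1 window each of Sox13 and Sox8. No window was available for Sox9 or Sox10, so these genes were not searched. Windows of 1 gene are not independent, and a match is a description of letters, not a binding site. The Foxa letters TGTTTAC, found in 3.17% of all windows, were in 0 of the 6 windows of Sox6 and in 0 of 1 for Sox5. Capitals mark the Sox letters in either orientation, and each sequence runs 5′ to 3′ on the gene's strand, which is the minus strand of chromosome 7 for Sox6 and of chromosome 6 for Sox5. The 3 printed Sox6 windows lie at chr7:116038745-116038994, chr7:115995087-115995336 and chr7:115824711-115824960, and the Sox5 window at chr6:143947107-143947356. The printed Sox6 windows 1, 3 and 5 held 1, 4 and 3 matches. Windows 2 and 4 held 1 match each and window 6 held 0, and these are not printed.
Sox6 window 1: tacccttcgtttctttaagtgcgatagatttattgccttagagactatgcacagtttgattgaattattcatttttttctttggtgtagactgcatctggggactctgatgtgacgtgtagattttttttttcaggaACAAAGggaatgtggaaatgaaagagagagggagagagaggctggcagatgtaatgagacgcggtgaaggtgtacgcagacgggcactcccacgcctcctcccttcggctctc
Sox6 window 3: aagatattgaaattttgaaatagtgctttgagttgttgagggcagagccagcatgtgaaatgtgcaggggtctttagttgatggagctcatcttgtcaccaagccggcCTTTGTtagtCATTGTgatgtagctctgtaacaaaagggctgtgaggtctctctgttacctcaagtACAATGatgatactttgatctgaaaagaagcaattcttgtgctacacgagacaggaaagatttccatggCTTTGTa
Sox6 window 5: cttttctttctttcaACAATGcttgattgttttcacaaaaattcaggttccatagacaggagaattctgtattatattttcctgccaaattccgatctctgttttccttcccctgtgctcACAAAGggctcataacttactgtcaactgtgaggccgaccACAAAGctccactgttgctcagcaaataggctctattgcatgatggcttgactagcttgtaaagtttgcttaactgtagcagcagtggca
Sox5 window 1: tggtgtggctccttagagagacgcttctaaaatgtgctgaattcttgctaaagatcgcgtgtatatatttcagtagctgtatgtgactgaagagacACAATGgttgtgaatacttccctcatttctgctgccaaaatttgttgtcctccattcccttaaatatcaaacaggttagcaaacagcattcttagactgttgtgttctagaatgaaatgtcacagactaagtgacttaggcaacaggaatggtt

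The deposited values are array intensities on a linear scale that the authors had scaled to 1 common trimmed mean of 150 on every array. The level at the 40th percentile of an array lay between 11.7 and 18.4, and the median between 19.8 and 27.98, so values around these are near background and probe sets cannot be ranked against each other by level. Differences were fitted with limma on log2(intensity + 32), which understates the change of dim probe sets. A probe set was kept for the test if 3 of the 6 arrays reached their 40th percentile; 27821 were kept, and 13 of the 19 SoxD and SoxE probe sets were among them. Both arrays of pool 1 had high 3′ over 5′ signal ratios of the Gapdh control, 14.0 on the GFP-positive and 15.4 on the GFP-negative array, against 1.60 to 2.22 on the other 4. Of 18 measured node and notochord markers, 10 rose and 0 fell in GFP-positive cells, against 2.60% and 1.41% of all 12628 genes. Of the 10, Dand5 was kept only through its GFP-positive arrays and adds no support to the count. The smallest adjusted p-values on this list were those of Foxa1 (log2 fold change 4.13 ± 0.28, SE), Foxa2 (3.64 ± 0.24), Bicc1 (3.58 ± 0.24) and Nodal (3.18 ± 0.21), which were equal. The other kept probe set of Nodal had 0.83. Markers of 2 other tissues rose beside the node and notochord markers. Of 15 presomitic and somite markers, 7 were higher and 0 lower, with the smallest adjusted p-values for Pcdh8, Ripply2 and Foxc1 (1.89, 1.5 and 1.26). Of 12 gut endoderm markers, 5 were higher (Foxa1 and Foxa2 again, Apela at 2.04, Trh and Epcam) and 1, Hhex, was lower. With the embryo pool as a block, 8.40% of all genes were higher and 6.76% lower. In that fit 13 presomitic and somite markers were higher, as were 8 gut endoderm markers, and 2 gut endoderm markers were lower. Uncx, among these 13 somite markers, was kept only through its GFP-positive arrays and adds no support to the count.

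Sox9 was higher in GFP-positive cells by both of its kept probe sets, and Sox6 by 1 of 4. None of the 13 kept probe sets was lower, while those of Sox5, Sox13 and Sox10 did not pass. In numbers, 3 of 13 passed as higher at an adjusted p under 0.05 over all kept probe sets, and 0 as lower. Over all kept probe sets 1.26% passed as higher and 0.550% as lower. At an unadjusted p under 0.05 in limma, 4 of 13 were higher. Lower at that threshold were 3 of 13 (Sox5 1432190_at and 1452511_at and Sox10 1424985_a_at). With each gene taken by its brightest kept probe set, 1520 of 12628 genes were higher and 1221 lower at that threshold. The median log2 fold change was 0.03 over the 13 and -0.03 over all kept probe sets. In 4 of the 13 every GFP-positive array lay above every GFP-negative array, as in 11.9% of all kept probe sets, and in 2 every GFP-positive array lay below, as in 12.8%. With the embryo pool as a block, 4 of the 13 were higher and 1 lower, against 4.93% and 4.93% of all kept probe sets. The lower one was Sox5 1452511_at, which was also 1 of the 3 lower at an unadjusted p and 1 of the 2 lower without overlap. It was kept only through its GFP-negative arrays, so it adds no support to these counts. In sorted bulk RNA, a lower share of cells that express a gene and less RNA per cell cannot be told apart.

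**Figure D1:**
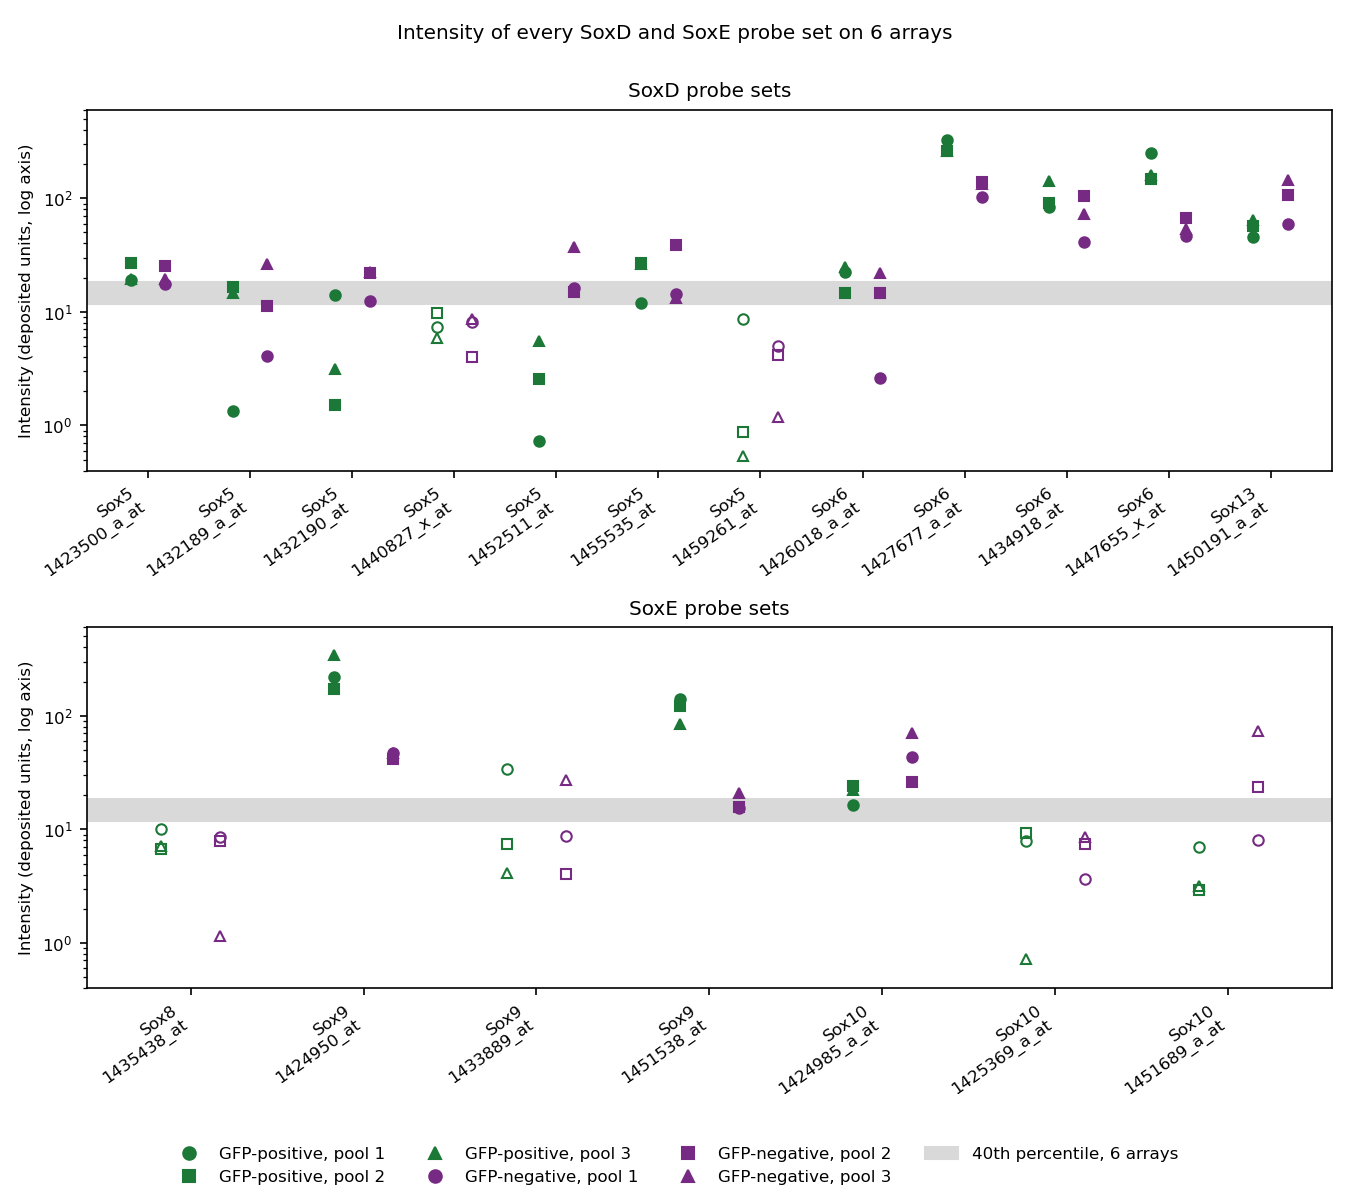
Each point is the deposited intensity (log axis) of 1 probe set on 1 array, with GFP-positive arrays to the left and GFP-negative arrays to the right of each tick and the pool given by the symbol. Filled points are probe sets kept for the test, open points are not, and the grey band spans the 40th percentiles of the 6 arrays (11.7 to 18.4). Both kept Sox9 probe sets and 2 of Sox6 show every GFP-positive array above every GFP-negative array, while Sox5 and Sox8 lie near or below the band.

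Sox9, the SoxE factor that activates cartilage matrix genes, changed most among the SoxD and SoxE genes. Probe set 1424950_at had 222, 171 and 341 in GFP-positive pools 1, 2 and 3, against 46.8, 41.5 and 47.4 in GFP-negative pools. The groups did not overlap, and the GFP-negative arrays were within a few units of each other. Its mean was 245 ± 87.5 in GFP-positive and 45.2 ± 3.25 in GFP-negative cells (SD, n = 3 each), with a log2 fold change of 1.79 ± 0.26 (SE, limma adjusted p = 0.0153). Within pools 1, 2 and 3 the difference was 1.69, 1.47 and 2.23.

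Probe set 1451538_at of Sox9 had 141, 123 and 84.9 in GFP-positive pools, against 15.5, 15.9 and 20.8 in GFP-negative pools. Again no GFP-positive array was as low as any GFP-negative one, and the GFP-negative values lay just above the 40th percentile of their arrays, so the fold is measured against values near background. The log2 fold change was 1.57 ± 0.20 (SE, limma adjusted p = 0.0111), with 1.87, 1.70 and 1.15 within pools 1, 2 and 3. The order of the GFP-positive pools differed between these probe sets: pool 3 was the brightest by the first and the dimmest by the second.

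The remaining Sox9 probe set, 1433889_at, was not kept. It had 34.0, 7.46 and 4.10 in GFP-positive pools, against 8.70, 4.07 and 27.4 in GFP-negative pools. These groups overlapped, and 2 of the 6 arrays reached their 40th percentile. It was not tested.

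Without pool 1 the Sox9 log2 fold changes were 1.85 for 1424950_at and 1.42 for 1451538_at, and both passed (adjusted p = 0.00147 and 0.00116). Without pool 2 they were 1.96 and 1.51 and neither passed (adjusted p = 0.349 and 0.480). Without pool 3 they were 1.58 and 1.78 and neither passed (0.254 and 0.0978). These fits hold 2 arrays a group.

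Sox10, the SoxE factor of neural crest and its glia, did not pass by its 1 kept probe set. Probe set 1424985_a_at had 16.4, 24.1 and 22.1 in GFP-positive pools, against 43.3, 26.3 and 69.9 in GFP-negative pools. Every GFP-positive array lay below every GFP-negative one, but pool 2 differed by only -0.06 on the log2 scale. As a log2 fold change this was -0.54 ± 0.22 (SE, limma adjusted p = 0.241), with a 95% interval of -1.04 to -0.03.

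Another Sox10 probe set, 1451689_a_at, had 6.97, 2.91 and 3.18 in GFP-positive pools, against 8.11, 23.8 and 73.7 in GFP-negative pools. These did not overlap either, yet only GFP-negative pools 2 and 3 reached the 40th percentile, so it was not kept. The third, 1425369_a_at, lay between 0.725 and 9.35 on all 6 arrays, below the 40th percentile of each.

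Some neural crest markers were lower in GFP-positive cells. Of 12 measured, 0 were higher and 4 were lower, against 2.60% and 1.41% of all 12628 genes, and their median log2 fold change was -0.89, against 0.01 over all genes. The 4 were Snai2, a factor of migrating mesenchyme and crest, at -2.83 ± 0.30 (SE), the endothelin receptor Ednrb at -2.19 ± 0.37, Tfap2a, a factor of crest and surface ectoderm, at -1.39 ± 0.18, and Dlx5 at -0.89 ± 0.15. Other kept probe sets had -1.38 for Snai2, -0.61 and -0.51 for Ednrb and -0.59 for Tfap2a. Dlx5 was kept only through its GFP-negative arrays, so its size is not well determined and it adds no support to the count. With the embryo pool as a block 7 of the 12 were lower and 0 higher, against 6.76% and 8.40% of all genes. Without the block, 8 of the 12 did not pass. Ets1 (-1.61), Msx1 (-1.16) and Msx2 (-0.89) were negative. Twist1 (-0.05), Ngfr (0.05) and Mitf (0.06) barely differed, and Pax3 (0.33) and Erbb3 (0.52) were positive. The summed intensity of the 12 was 1160 to 1347 on GFP-positive and 3023 to 3906 on GFP-negative arrays. Snai2 (GFP-positive mean 146, GFP-negative 1207) and Ets1 (195 and 779) had the highest GFP-negative means, so the sum does not describe the list evenly. The crest genes Foxd3, Tfap2b and Pax7 were not kept. Snai2 and Tfap2a are also expressed outside the crest, and the part of crest cells in the Sox10 values was not tested.

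Sox8, the SoxE gene that overlaps in function with Sox9 and Sox10, was at background. Its only probe set, 1435438_at, had 10.01, 6.73 and 7.18 in GFP-positive pools, against 8.49, 7.89 and 1.15 in GFP-negative pools. All 6 values lay below the 40th percentile of their arrays and the groups overlapped. A difference was not detectable at this signal.

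Sox6, the SoxD factor that enhances Sox9 activity in cartilage, had 4 kept probe sets, all with a positive log2 fold change, of which 1 passed. Probe set 1447655_x_at had 253, 148 and 159 in GFP-positive pools, against 46.2, 67.2 and 54.0 in GFP-negative pools. The lowest GFP-positive array was above the highest GFP-negative array. Its log2 fold change was 1.29 ± 0.24 (SE, limma adjusted p = 0.0395), with 1.86, 0.86 and 1.15 within pools 1, 2 and 3. By its suffix, this type of probe set can bind related sequences.

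Probe set 1427677_a_at of Sox6 followed the same array order closely but did not pass. It had 328, 262 and 262 in GFP-positive pools, against 103, 140 and 134 in GFP-negative pools. These did not overlap, and pool 1 had both the brightest GFP-positive and the dimmest GFP-negative array. Its log2 fold change was 1.00 ± 0.21 (SE, limma adjusted p = 0.0594; 0.0197 as the adjusted p of the blocked fit), with 1.42, 0.77 and 0.82 within pools 1, 2 and 3.

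The other Sox6 probe sets showed smaller differences. Probe set 1434918_at had 84.4, 91.3 and 143 in GFP-positive pools, against 41.1, 104 and 72.6 in GFP-negative pools. The groups overlapped, since GFP-negative pool 2 was above GFP-positive pools 1 and 2, and the log2 fold change was 0.42 ± 0.28 with a 95% interval of -0.22 to 1.07. Probe set 1426018_a_at had 22.6, 14.7 and 25.0 against 2.61, 14.7 and 22.0 for GFP-positive and GFP-negative pools, near background, and a log2 fold change of 0.25 ± 0.19 (interval -0.19 to 0.68).

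Both probe sets of Sox6 with separated groups differed most in pool 1, whose arrays had the high 3′ over 5′ control ratios. Without pool 1 the log2 fold changes were 1.01 for 1447655_x_at and 0.80 for 1427677_a_at, and both passed (adjusted p = 0.00277 and 0.00453). Without pool 2 they were 1.51 and 1.12 and without pool 3 they were 1.36 and 1.10, and neither passed (adjusted p between 0.462 and 0.878).

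Sox5, the partner of Sox6 in cartilage, lay near background on all of its 7 probe sets, and the 5 kept ones disagreed in sign. Values over these 7 ranged between 0.539 and 38.9. The one with all 6 arrays at or above the 40th percentile, 1423500_a_at, had 19.1, 26.7 and 19.5 in GFP-positive pools, against 17.7, 25.2 and 19.4 in GFP-negative pools. Each pool's pair of arrays was almost equal, and pool 2 was the highest in both groups. The log2 fold change was 0.03 ± 0.15 (SE, limma adjusted p = 0.941), with a 95% interval of -0.31 to 0.36.

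Sox5 probe set 1452511_at had 0.728, 2.55 and 5.53 in GFP-positive pools, against 16.3, 15.0 and 36.9 in GFP-negative pools. The groups did not overlap. It was kept only through the GFP-negative arrays, and with GFP-positive values far below the 40th percentile its size is not well determined. The log2 fold change was -0.63 ± 0.18 (SE, limma adjusted p = 0.116), and it was called lower in the blocked fit (adjusted p = 0.0445).

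Probe set 1432190_at of Sox5 had 14.2, 1.51 and 3.15 in GFP-positive pools, against 12.4, 22.1 and 22.5 in GFP-negative pools. Pools 2 and 3 were lower and pool 1 was not, and the log2 fold change was -0.42 ± 0.17 (adjusted p = 0.229). For 1432189_a_at and 1455535_at the log2 fold changes were -0.09 ± 0.22 and 0.01 ± 0.22, with overlapping groups. The 2 that were not kept, 1440827_x_at and 1459261_at, lay at or below 9.81 on all 6 arrays. The 95% intervals of 1423500_a_at and 1452511_at, -0.31 to 0.36 and -1.03 to -0.23, overlapped, and the difference between the Sox5 probe sets was not tested.

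Sox13, the SoxD factor best known from a lineage of T cells, had 1 probe set and did not pass. Probe set 1450191_a_at had 45.3, 57.3 and 63.8 in GFP-positive pools, against 59.3, 106 and 144 in GFP-negative pools. GFP-negative pool 1 fell among the GFP-positive arrays, while within each of the 3 pools the GFP-positive array was the lower one, with log2 differences of -0.24, -0.63 and -0.87. Over all arrays the log2 fold change was -0.58 ± 0.27 (SE, limma adjusted p = 0.281; interval -1.19 to 0.02). It passed without pool 1, at -0.75 (adjusted p = 0.0145), and without GFP-negative array 1, at -0.84 (adjusted p = 0.0336).

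**Figure D2:**
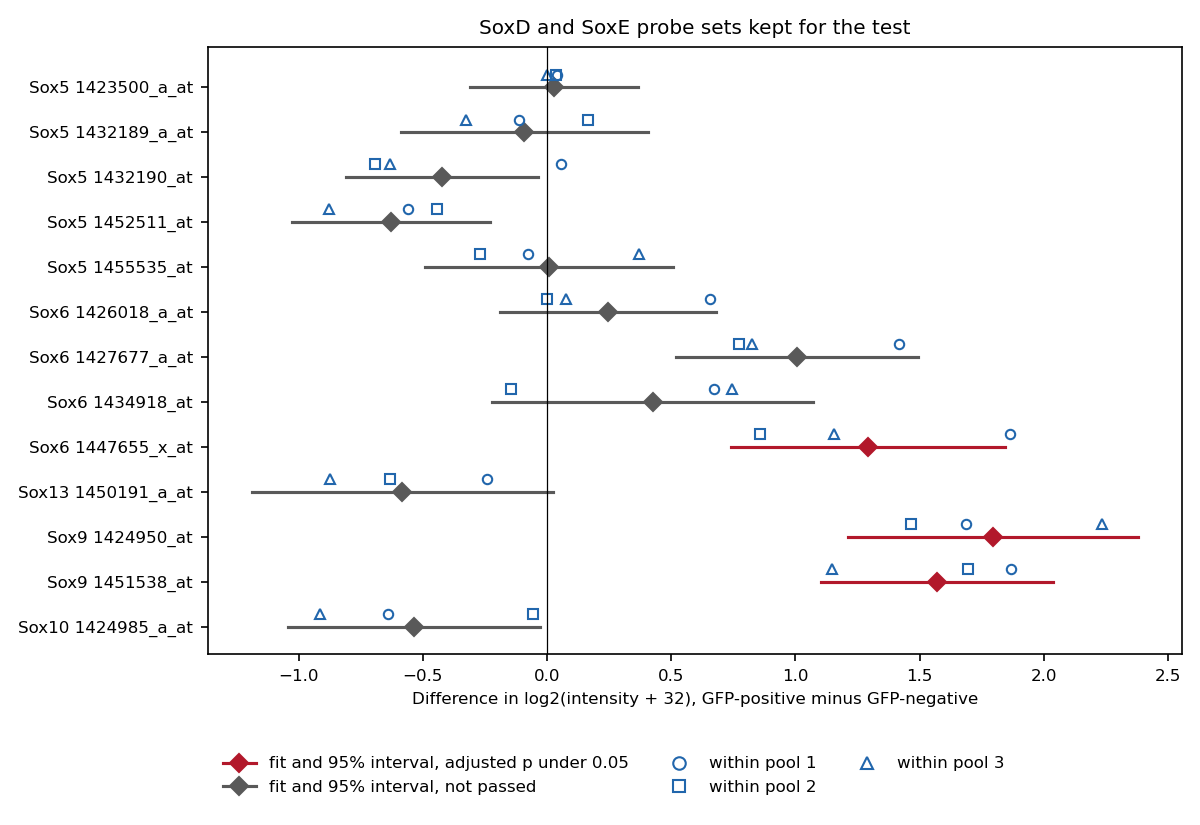
Diamonds are fitted differences in log2(intensity + 32), GFP-positive minus GFP-negative, with 95% intervals for the 13 kept SoxD and SoxE probe sets. Open symbols above each are the differences within pools 1, 2 and 3. The Sox9 pair and Sox6 1447655_x_at passed, and Sox5 1452511_at, Sox13 and Sox10 lie on the negative side without passing.

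The calls depended on single arrays and pools, and those of Sox6 also on the filter, the variance model and the set of p-values adjusted. Sox6 1447655_x_at did not pass with no filter (limma adjusted p = 0.068). Sox6 1427677_a_at passed with a filter at the 60th percentile (limma adjusted p = 0.0465), without the variance trend (0.0419) and when p-values were adjusted over genes, as for the gene lists (0.0423). The number of the 13 called higher was 4 without pool 1 and 0 without pool 2 or without pool 3. It was 0 when GFP-negative array 2 was left out, 1 for GFP-negative array 3, GFP-positive array 2 or GFP-positive array 3, 2 for GFP-positive array 1 and 4 for GFP-negative array 1. Over all kept probe sets the higher calls numbered 3563 without pool 1, 2 without pool 2 and 25 without pool 3. The sign of both Sox9 and all 4 Sox6 probe sets was positive in every one of the 16 or 15 other fits in which each was kept, and the Sox9 values lay between 1.14 and 2.04.

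**Figure D3:**
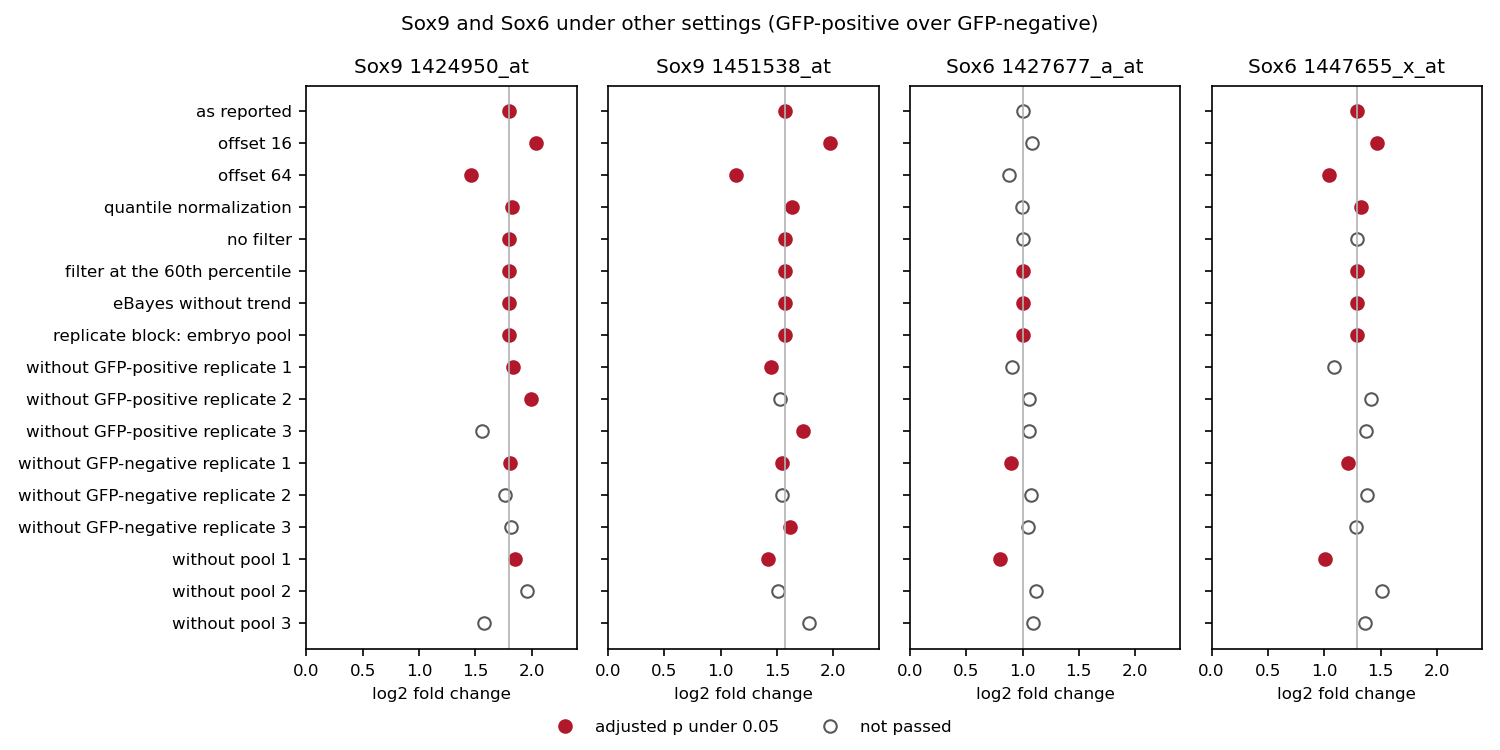
Log2 fold changes (GFP-positive over GFP-negative) of 2 Sox9 and 2 Sox6 probe sets are plotted for the reported fit, in the top row, and for 16 others. Filled points passed at an adjusted p under 0.05, and the vertical line marks the reported value. All points lie at or above 0.80, and those without pool 2 or pool 3 are open for all 4 probe sets.

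Across the 6 arrays the called probe sets of Sox9 and Sox6 followed each other. Pearson's r of log2 values with the called Sox6 1447655_x_at was 0.96 for Sox9 1451538_at and 0.90 for Sox9 1424950_at, and it was 0.89 between the Sox9 pair. Sox6 1427677_a_at, which was not called, had r values of 0.97 and 0.91 with the same Sox9 probe sets and 0.99 with Sox6 1447655_x_at. The other kept Sox6 probe sets followed Sox9 less closely. With the same Sox9 pair, in that order, 1434918_at had 0.45 and 0.63, and 1426018_a_at had 0.50 and 0.57. Sox10 1424985_a_at and Sox5 1452511_at ran together at 0.94. These values describe 6 arrays from 3 pools in which the sorted groups set most of the spread.

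The genes whose pattern was most like each of Sox9, Sox6 and Sox5 were taken as the 5 with the highest Pearson's r to its kept probe set of highest mean, over 6 arrays and 22985 probe sets with 1 symbol. For Sox9 1424950_at they were Rhbg (r = 0.9998), an ammonium transporter, Gng4 (0.9974), a G protein subunit, Ankzf1 (0.9969), Firre (0.9928) and Odf3b (0.9927). Rhbg had 20.7, 16.1 and 28.5 in GFP-positive pools, against 2.26, 0.957 and 2.06 in GFP-negative pools, so its likeness is in values near background. Gng4 had 174, 157 and 244 against 46.9, 41.5 and 46.5 for GFP-positive and GFP-negative pools, and passed at 1.52 ± 0.22 (SE, limma adjusted p = 0.0153). Rhbg, Ankzf1, Firre and Odf3b did not pass, and Rhbg and Odf3b were kept only through their GFP-positive arrays.

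For Sox6 1427677_a_at the most alike were Bicc1 (r = 0.9989), an RNA-binding protein of the node, Aplnr (0.9965), the apelin receptor, 2510009E07Rik (0.9962), Ift140 (0.9959), a subunit of the ciliary transport complex, and Dram2 (0.9954). This Bicc1 probe set had 802, 503 and 524 in GFP-positive pools, against 39.1, 92.1 and 90.5 in GFP-negative pools. Like Sox6, it had both its highest GFP-positive and its lowest GFP-negative value in pool 1. For Sox5 1423500_a_at the most alike were Uck2 (0.9675), Slc16a13, Zfp955a, Kif13a and Cuedc1 (0.9483), none of which passed, and which share its high value in pool 2 of both groups. An r above 0.95 was reached by 234 genes for Sox9, 244 for Sox6 and 4 for Sox5.

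Among cartilage and sheath matrix genes, known targets of Sox9 with Sox5 and Sox6 or parts of the same matrix, 2 were higher, 1 was lower and 12 did not pass. This list had 23 genes, of which 15 were measured and 8 not kept. The higher share over all genes was 2.60% and the lower share 1.41%. Of the 2 higher genes, Comp was kept only through its GFP-positive arrays, and Col2a1 through these and 1 GFP-negative array. The list's median log2 fold change was 0.21, against 0.01 over all genes.

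Col2a1, the main fibrillar collagen of cartilage and of the notochord sheath and a direct target of Sox9, had 52.6, 86.6 and 83.3 in GFP-positive pools, against 3.05, 15.8 and 5.18 in GFP-negative pools. The groups did not overlap, and the GFP-negative values lay near or below the 40th percentile. It was higher by 1.4 ± 0.21 (SE, limma adjusted p = 0.0113 over genes).

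Comp, the cartilage oligomeric matrix protein, had 152, 106 and 97.6 in GFP-positive pools, against 14.5, 14.3 and 7.68 in GFP-negative pools. Its 3 GFP-negative values lay below the 40th percentile of their arrays, so it was kept only through the GFP-positive arrays and its size is not well determined. The fitted log2 fold change was 1.76 ± 0.20 (SE, limma adjusted p = 0.00409 over genes). Hapln1, the link protein that ties aggrecan to hyaluronan, ran the other way. It had 110, 63.2 and 36.7 in GFP-positive pools, against 349, 614 and 475 in GFP-negative pools, a log2 fold change of -2.36 ± 0.32, and its 3 other kept probe sets also had negative values (-1.30, -1.51 and -1.33).

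Further matrix genes had positive values that did not pass, and 2 of them passed in the blocked fit, in which 8.40% of all genes were higher and 6.76% lower. Wwp2, a ubiquitin ligase whose gene is a Sox9 target, had 250, 275 and 210 in GFP-positive pools, against 122, 135 and 114 in GFP-negative pools, at 0.82 ± 0.20 (adjusted p = 0.0625, and 0.0164 with the block). Its 3 other kept probe sets had 0.19, 0.45 and 0.23. Col9a1, a chain of the collagen on cartilage fibrils, had 662, 474 and 472 against 308, 382 and 272 for GFP-positive and GFP-negative pools, at 0.68 ± 0.23 (adjusted p = 0.139, and 0.0484 with the block). A second kept probe set of Col9a1 was of opposite sign, at -0.32. Col9a3, another chain of the same collagen, had 0.53 ± 0.16 (adjusted p = 0.107), and 0.42 by its other kept probe set. The first of these was kept only through its GFP-positive arrays, so its size is not well determined.

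For the remaining 9 measured matrix genes the log2 fold changes of the brightest kept probe set lay between -0.18 and 0.26. They were Snorc (0.26), Fmod (0.23), Cnmd (0.21), Col11a1 (0.21), Acan (0.05), Matn4 (-0.03), Col27a1 (-0.08), Col11a2 (-0.14) and Matn3 (-0.18). The other kept probe set had 0.53 for Col11a1, -0.51 for Matn3, 0.06 for Fmod and -0.18 for Col27a1. Acan, the large proteoglycan of cartilage, had 14.3, 14.5 and 12.2 in GFP-positive pools, against 19.9, 3.65 and 14.4 in GFP-negative pools, which is near background in both groups. Col9a2, Matn1, Chad, Epyc, Ucma, Cytl1, Mia and Papss2 were not kept.

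**Figure D4:**
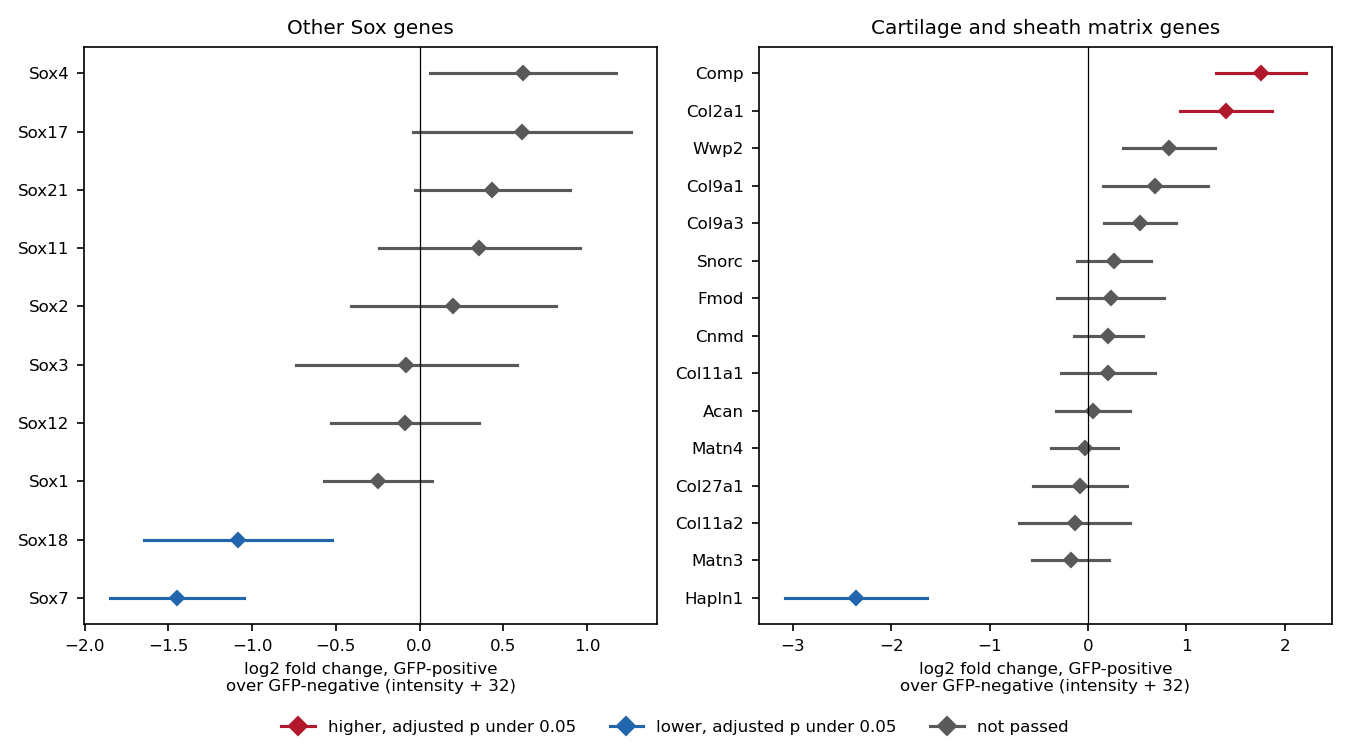
Diamonds are log2 fold changes (GFP-positive over GFP-negative, on intensity + 32) of the measured genes outside the SoxD and SoxE families, with 95% intervals, for other Sox genes on the left and cartilage and sheath matrix genes on the right. Comp (kept only through its GFP-positive arrays) and Col2a1 were higher, Hapln1, Sox7 and Sox18 were lower, and the others did not pass.

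Factors of sclerotome and cartilage, the tissue in which the Sox trio is best known, were measured for 7 of the 14 listed. Of these 7, 2 were higher, Foxc1 at 1.26 ± 0.22 and Meox1 at 1.15 ± 0.26, and 1 was lower, Trps1 at -1.0 ± 0.22, against 2.60% and 1.41% of all genes. The 3 other kept probe sets of Trps1 had only -0.38, -0.22 and -0.07. The median log2 fold change of the 7 was 0.96, against 0.01 over all genes. With the embryo pool as a block 5 of the 7 were higher, against 8.40% of all genes, since Foxc2 (1.05), Meox2 (0.96) and Uncx (0.71), the last kept only through its GFP-positive arrays, passed as well. Foxc1 and Meox1 are also on the presomitic and somite list. The sclerotome factors Pax1, Pax9 and Nkx3-2 were not kept.

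Among the other Sox genes, each by its brightest kept probe set, 0 of 10 measured were higher in limma and 2 were lower, against 2.60% and 1.41% of all genes. Sox4 alone was higher at an unadjusted p under 0.05, as were 1520 of all 12628 genes. It also passed in the blocked fit, in which 8.40% of all genes were higher. The 4 others listed were not kept. Sox7 and Sox18, SoxF factors of endothelium, were the lower pair. Sox7 had 16.1, 15.8 and 18.9 in GFP-positive pools, against 86.5, 108 and 112 in GFP-negative pools, at -1.45 ± 0.17 (SE, limma adjusted p = 0.0049), though its other kept probe set had only -0.13. Sox18 had 29.8, 35.8 and 27.4 against 62.0, 121 and 134 for GFP-positive and GFP-negative pools, at -1.09 ± 0.25 (adjusted p = 0.0489). Endothelial and blood markers were lower beside them, 6 of 12, with 0 higher, and 11 of 12 were lower with the embryo pool as a block, against 6.76% of all genes. Their summed intensity was 1323 to 6911 on GFP-positive and 13995 to 30954 on GFP-negative arrays. The list holds blood genes such as Hemgn and the globins, so this sum does not describe endothelium alone.

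Sox17, the SoxF factor of endoderm, had 207, 370 and 437 in GFP-positive pools, against 184, 236 and 185 in GFP-negative pools. GFP-positive pool 1 lay below GFP-negative pool 2, and the log2 fold change was 0.61 ± 0.29 (adjusted p = 0.255). Sox4, a SoxC factor of progenitor cells, had 4522, 2820 and 3072 in GFP-positive pools, against 2772, 2081 and 1848 in GFP-negative pools, at 0.62 ± 0.24 (adjusted p = 0.188, and 0.0329 with the block). Its 5 other kept probe sets had 1.09, 1.96, 0.20, 0.31 and 0.34. The largest of these lay above both kept Sox9 probe sets (1.79 and 1.57).

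The SoxB1 factors Sox2, Sox3 and Sox1, which mark neural plate and other progenitors, had log2 fold changes of 0.20 ± 0.27, -0.08 ± 0.29 and -0.25 ± 0.14, and Sox21, which counteracts them in the chick, had 0.44 ± 0.20. Those of the SoxC factors Sox11 and Sox12 were 0.36 ± 0.26 and -0.09 ± 0.19. None of these passed. For Sox11, 3 of its 5 further kept probe sets were of opposite sign. Sry, Sox14, Sox15 and Sox30 were not kept.

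Other cell type lists give the setting of these values, beside the 2.60% higher and 1.41% lower of all genes. Of 13 neural plate markers, 0 were higher and 1, Nkx1-2 at -1.44 ± 0.31, was lower. With the embryo pool as a block 2 were higher (Irx3 and Hes5) and 4 lower (Nkx1-2, Pax6, Olig3 and Zic5). The shares of all genes were 8.40% and 6.76%. Of 12 lateral mesoderm markers, 0 were higher and 7 lower, with the smallest adjusted p-values for Tbx20, Prrx1 and Gata6 (-4.04, -1.72 and -1.54). The other kept probe set of Tbx20 had -0.66. Of 9 surface ectoderm markers, 0 were higher and 4 lower, namely Tfap2a, Dlx5, Trp63 and Gata3 (-1.39, -0.89, -1.01 and -0.73), of which Dlx5 and Gata3 were kept only through their GFP-negative arrays. On the endothelial and blood list the smallest adjusted p-values were those of Kdr, Etv2 and Tal1, at -2.94, -1.88 and -1.80. At an unadjusted p under 0.05 in limma, 1520 of all 12628 genes were higher and 1221 lower. At that threshold 3 neural plate markers were higher (Hes5, Irx3 and Nkx6-1) and 4 lower (Nkx1-2, Pax6, Olig3 and Zic5). Nkx6-1 was kept only through its GFP-positive arrays and adds no support to the count. Of the neural crest, lateral mesoderm, surface ectoderm and endothelial lists 0 were higher, while 1 node and notochord marker and 0 presomitic markers were lower. That node and notochord marker was Cd24a at -0.43, whose other kept probe sets had 0.73 and -0.12. The share of each of these cell types in the sorted groups was not tested.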

How the data were processed

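RNA of 3 GFP-positive and 3 GFP-negative sorts was amplified through 2 cycles and hybridized with a biotin label, per the labels' protocols. The deposited intensities came from GCOS 1.4, which the submitters' processing notes name; the probe set summary, detection calls and genome build are not given in the sources used here. Of 45101 probe sets (64 controls), 34958 had 1 gene symbol, 932 several and 9211 were unnamed. All 6 member symbols matched RefSeq. No column of per-sample values was left unused (0).

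Log2(intensity + 32) was modelled in limma 3.58.1 under R 4.3.3, with group alone in the design and a variance trend in eBayes, and Benjamini-Hochberg adjustment ran over all 27821 kept probe sets. For gene lists, the brightest kept probe set stood for each of 12628 genes, and p-values of the same fit were adjusted again over genes. Same-numbered arrays share an embryo pool, per the labels, and the residuals of each such pair correlated at 0.542, 0.286 and 0.436, so the pool was used as a block in an alternative (the blocked fit). Named genes were every member probe set and all measured genes of the other Sox and matrix lists. On each other list they were the 3 with the smallest adjusted p among those that passed (4 where these were equal). Also named were the genes of most counts of 5 or fewer, and the 5 most alike. Members and lists were chosen with earlier results of these data known. The fit was tested on simulated data. The number of arrays limits the precision. Alternatives were the offset, normalization, filter, variance model, block, gene summary, and each array or pool left out. Noto was not analysed here.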

Additional observations from a re-analysis of the deposited data

How the results depend on the processing

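Of the 13 kept SoxD and SoxE probe sets, 3 were higher and 0 lower as reported. The numbers were 4 and 1 with the pool as a block, and ranged between 0 and 4 and between 0 and 1 when single arrays or pools were left out. Over all kept probe sets the 350 higher and 153 lower calls became 1372 and 1371 with the pool as a block and 185 and 67 with no filter, and ranged between 2 and 3563 and between 0 and 4080 with arrays or pools left out. Of the matrix genes 4 were higher with the block, and 0 to 2 were higher and 0 to 2 lower with arrays or pools left out. Of the other Sox genes 1 was higher with the block and with each gene's kept probe sets averaged, and 1 was lower with an offset of 64, quantile normalization or no filter; with arrays or pools left out 0 to 3 were higher and 0 to 3 lower. The signs of 3 Sox5 probe sets near 0 turned. With arrays or pools left out, 1423500_a_at lay between -0.038 and 0.087, 1432189_a_at between -0.25 and 0.080 and 1455535_at between -0.10 and 0.15, and 1432189_a_at had 0.0075 with quantile normalization. The pool as a block also raised the calls on the somite, sclerotome, gut, crest, neural plate and endothelial lists by over 1.5 times, to the numbers given beside them. The causes were not tested. The block changed no call of a member probe set other than Sox6 1427677_a_at and Sox5 1452511_at, the latter kept only through its GFP-negative arrays. The offset moved the Sox9 log2 fold changes to between 1.14 and 2.04. The filter asked for 3 arrays in every fit, so some probe sets went untested when arrays were left out. Low signal limits Sox5, Sox8 and most of Sox10.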
